A study of Mus musculus with 9 samples.

Results

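The AP-1 and immediate early genes described here were 10 genes, Fos, Fosb, Fosl2, Jun, Junb, Jund, Atf3, Ier2, Egr1 and Nr4a1. Every peak whose annotated gene name was one of these was taken from the 9 peak lists. That gave 457 peaks of 253457 in all, and 10 of the 20035 genes named in any list. The lists came from Omni-ATAC-seq, which cuts and tags open chromatin with a transposase, on flow-sorted live endothelial cells (ECs) of mouse brain. The study asked how loss of the transcription factor Klf4 in ECs and ageing change the chromatin of these cells.

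The 4 groups were WT Cre at a young (n = 2) and an old age (n = 2) and EC-K4KO at a young (n = 3) and an old age (n = 2). WT Cre mice carried the VE-cadherin (Cdh5) Cre with an intact Klf4 gene, and EC-K4KO mice carried the same Cre with floxed Klf4. Both genotypes received tamoxifen as young adults, so the controls share the Cre and the drug. All young libraries have one name prefix and all old libraries another, and the labels do not say what the prefix marks, so anything that it marks cannot be told apart from age. The labels do not say whether a library is 1 animal or a pool, and p-values measure the spread between these libraries only.

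AP-1 is a dimer of a Fos family protein (Fos, Fosb, Fosl2) and a Jun family protein (Jun, Junb, Jund), or of a Jun protein with an ATF protein such as Atf3. The sites of Fos and Jun dimers were searched for here as TGANTCA, a pattern that allows any base at N. Immediate early genes are transcribed within minutes of a stimulus without new protein synthesis, through serum response factor at CArG boxes and CREB at cyclic AMP response elements (CREs), and their promoters are often open before the stimulus. Egr1 is a zinc finger factor that binds GC-rich sites, Nr4a1 an orphan nuclear receptor, and Ier2 a nuclear protein of the same early response. In ECs these genes respond to flow, growth factors and inflammation, and also to tissue dissociation.

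The lists held no read counts, so depth is unknown. List length ran from 6157 and 9598 peaks in young WT Cre through 23848 to 27992 in young EC-K4KO to 32555 to 45026 in the old libraries. A longer list can hold weaker peaks, so a peak that is missing from a young WT Cre list is not shown to be closed there. Of the 12 endothelial markers 5 had a promoter peak in young WT Cre, 7 to 10 in young EC-K4KO and 10 or 11 in old libraries, and 10 to 12 had a peak of any class in every library. Promoter peaks of other cell types ran from 0 in young WT Cre to 1 or 2 of 5 pericyte and 1 or 2 of 6 neuron markers in old EC-K4KO, with 0 of 6 microglial ones in every library. Young EC-K4KO 1 also had promoter peaks at 2 of 6 neuron markers. Peaks of any class at the markers of other cell types were also more frequent in the longer lists. In young WT Cre they were found at 0 or 1 of 5 pericyte, 0 of 6 microglial, 0 to 2 of 5 astrocyte, 0 or 1 of 5 oligodendrocyte and 0 or 1 of 6 neuron markers, and in old EC-K4KO at 4 of 5, 3 or 4 of 6, 4 or 5 of 5, 2 or 3 of 5 and 4 or 5 of 6. The young EC-K4KO counts were 0 to 2, 1, 3 or 4, 1 to 3 and 4 or 5 in the same order. The old WT Cre counts were 2 to 4, 1, 4, 1 to 3 and 3 or 4. Of the 5 oligodendrocyte markers 3 were named in any list. The part of these peaks in the results was not tested. Klf4 itself kept a promoter peak in all 9 libraries, at ranks 2336 and 1649 of 3180 in young WT Cre, 689, 884 and 1077 in young EC-K4KO, 2604 and 2293 in old WT Cre and 1981 and 2010 in old EC-K4KO. A promoter peak does not measure deletion of the floxed exons, so it checks no genotype label.

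The sequences below are the accessible elements that the results turn on, in GRCm38 (mm10). Promoters are the 250 bases before the RefSeq transcription start site (TSS) on the gene's strand, and distal elements are 300 bases on the plus strand around the median peak centre. Capitals mark matches on either strand to AP-1 TGANTCA, the CRE half-site TGACGT, the CArG box, KLF GGGTGNGG and EGR GCGNGGGCG. Of the 10 genes, 8 matched the RefSeq promoter table, and Egr1 and Ier2 had no entry there. The Fos promoter, at chr12:85473640-85473889, holds 1 CRE half-site from -66 to -61. The Jun promoter, at chr4:95052223-95052472, holds 1 KLF match from -118 to -111. The Fosb window lies at chr7:19310108-19310407 under the promoter peak. It holds the only CArG box among the 300 base windows of the 9 member promoter regions. Where a region is longer, its window covers only the part around the peak centre, so a CArG box nearer the ends was not counted. The Fos -18425 element, at chr12:85455326-85455625, holds 3 CRE half-sites and was among the strongest peaks of every library. The Fos +12199 element, at chr12:85485950-85486249, holds a CArG box, a CRE half-site, a KLF and an EGR match. The Nr4a1 -20383 element, at chr15:101246313-101246612, holds 2 CRE half-sites, 2 KLF matches and 1 EGR match. The Atf3 -10567 element, at chr1:191193750-191194049, was the one member distal region seen in 5 or more libraries with AP-1 matches.
Fos promoter: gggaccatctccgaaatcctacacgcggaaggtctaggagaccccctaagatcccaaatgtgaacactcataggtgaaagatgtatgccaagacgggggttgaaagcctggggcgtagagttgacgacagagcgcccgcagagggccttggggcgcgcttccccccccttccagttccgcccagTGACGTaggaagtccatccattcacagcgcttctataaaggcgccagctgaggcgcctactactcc
Jun promoter: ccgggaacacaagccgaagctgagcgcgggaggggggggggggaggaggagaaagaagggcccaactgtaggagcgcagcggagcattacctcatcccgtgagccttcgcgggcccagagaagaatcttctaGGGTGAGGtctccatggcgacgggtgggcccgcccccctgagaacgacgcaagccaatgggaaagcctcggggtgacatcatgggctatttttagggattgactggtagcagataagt
Fosb promoter peak: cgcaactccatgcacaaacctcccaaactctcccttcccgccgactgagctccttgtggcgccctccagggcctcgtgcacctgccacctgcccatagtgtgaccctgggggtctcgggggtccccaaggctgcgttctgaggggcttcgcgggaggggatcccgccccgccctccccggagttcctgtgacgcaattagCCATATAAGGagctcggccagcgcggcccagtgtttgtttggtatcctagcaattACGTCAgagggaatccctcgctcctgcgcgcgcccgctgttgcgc
Fos -18425: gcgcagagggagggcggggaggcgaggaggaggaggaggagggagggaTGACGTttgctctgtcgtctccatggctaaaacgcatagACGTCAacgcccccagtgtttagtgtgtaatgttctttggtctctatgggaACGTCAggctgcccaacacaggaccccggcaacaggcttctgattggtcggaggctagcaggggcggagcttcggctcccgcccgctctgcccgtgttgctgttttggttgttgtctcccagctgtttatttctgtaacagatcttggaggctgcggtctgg
Fos +12199: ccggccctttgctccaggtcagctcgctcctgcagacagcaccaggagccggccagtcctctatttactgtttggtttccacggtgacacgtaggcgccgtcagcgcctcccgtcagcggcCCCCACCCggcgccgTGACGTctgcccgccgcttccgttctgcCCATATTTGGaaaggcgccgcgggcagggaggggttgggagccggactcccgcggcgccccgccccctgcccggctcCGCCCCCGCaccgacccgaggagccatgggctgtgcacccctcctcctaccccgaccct
Nr4a1 -20383: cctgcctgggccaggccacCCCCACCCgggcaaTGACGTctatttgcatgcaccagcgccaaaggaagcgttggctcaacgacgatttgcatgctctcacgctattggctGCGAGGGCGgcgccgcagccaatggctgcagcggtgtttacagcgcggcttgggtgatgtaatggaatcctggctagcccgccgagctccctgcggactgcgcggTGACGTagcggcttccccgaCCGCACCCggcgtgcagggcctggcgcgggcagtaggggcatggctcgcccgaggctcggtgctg
Atf3 -10567: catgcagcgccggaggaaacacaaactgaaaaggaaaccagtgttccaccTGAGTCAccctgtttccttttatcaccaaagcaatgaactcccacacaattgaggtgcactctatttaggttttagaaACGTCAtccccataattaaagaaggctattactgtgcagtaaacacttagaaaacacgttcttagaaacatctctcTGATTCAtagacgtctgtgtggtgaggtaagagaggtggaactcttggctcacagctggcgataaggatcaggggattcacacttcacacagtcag

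All 10 genes had a promoter peak in all 9 libraries when the promoter peak was the one that covers the TSS or lies nearest to it within 1000 bp. In the same way 3773 genes had a promoter peak in young WT Cre 1 and 10688 in old EC-K4KO 1. When each list was limited to its 6157 strongest peaks, 10 members kept a promoter peak in 4 libraries, 9 in 4 and 8 in old EC-K4KO 1. By the annotated class, which is set by the peak centre, the count was 8 in each young library, 7 and 9 in old WT Cre and 6 and 8 in old EC-K4KO. The difference between both counts comes from peaks whose centre lies past the promoter window. The Jund peak was classed as exon in all 9 libraries, Ier2 in 5 (both young WT Cre, young EC-K4KO 1 and 2 and old WT Cre 1), Junb in 3 (replicate 3 of young EC-K4KO and replicate 1 of both old groups), Atf3 in both old EC-K4KO libraries and Fos in old EC-K4KO 1. The Jund peak (chr8:70698324-70699612) began downstream of the TSS used by the authors, at base 70697739, in all 9 libraries and covered another Jund TSS of GENCODE M21.

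The strength of a promoter was given by its rank within a library, by −log10 p of its peak, among the 3180 genes with a promoter peak by position in all 9 libraries (rank 1 is the strongest). Jund, which is expressed in resting cells unlike most of its family, ranked 111 and 99 in young WT Cre and 116, 69 and 74 in young EC-K4KO. In the old libraries it ranked 591 and 229 in WT Cre and 215 and 313 in EC-K4KO. Every old library therefore ranked it lower than every young one, and the share of all genes that do so was not counted. Atf3, the stress-induced ATF member, ranked between 293 and 549 in all libraries, and the 4 groups overlapped.

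Jun, the main transactivating subunit, ranked 151 and 385 in young WT Cre. It ranked 639, 1024 and 922 in young EC-K4KO, 745 and 1024 in old WT Cre and 1029 and 1016 in old EC-K4KO. Both young WT Cre libraries placed it above all 7 others, which overlapped one another. How many of all genes show this order was not counted, so it is not shown to be particular to Jun. Fos ranked 478 and 1191 in young WT Cre and 864, 957 and 1152 in young EC-K4KO. It ranked 1333 and 1155 in old WT Cre and 1262 and 1560 in old EC-K4KO. The Fos values of young WT Cre spanned those of young EC-K4KO, and the old libraries overlapped young WT Cre 2. Fosl2, a Fos protein with a slower and more stable expression, ranked 632 and 1217 in young WT Cre and 573, 1411 and 1834 in young EC-K4KO. It ranked 1918 and 1783 in old WT Cre and 1770 and 1871 in old EC-K4KO. The old libraries stood together at the lower end and overlapped only young EC-K4KO 3.

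Fosb was the most variable member. It ranked 2205 and 1156 in young WT Cre, and 1666, 523 and 494 in young EC-K4KO. It ranked 1378 and 1409 in old WT Cre and 1567 and 1899 in old EC-K4KO. The spread inside the young groups was as wide as any difference between groups. Junb, the Jun protein that opposes Jun at many sites, stayed between 899 and 1868 with overlapping groups.

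Nr4a1 ranked 629 and 1104 in young WT Cre and 563, 702 and 802 in young EC-K4KO. It ranked 1428 and 1243 in old WT Cre and 1209 and 1281 in old EC-K4KO. All 4 old libraries lay below all 5 young ones, an order that was not counted over all genes. Egr1 ranked 2625 and 2068 in young WT Cre and from 2040 to 2071 in young EC-K4KO. It ranked 2627 and 2605 in old WT Cre and 2744 and 2583 in old EC-K4KO. Its old libraries lay below young EC-K4KO, while young WT Cre 1 lay among them. Ier2 had the weakest promoter peak of the 10 genes in 8 of 9 libraries, at ranks 2678 to 2953 with overlapping groups, and in old EC-K4KO 1 Egr1 ranked lower.

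**Figure D1:**
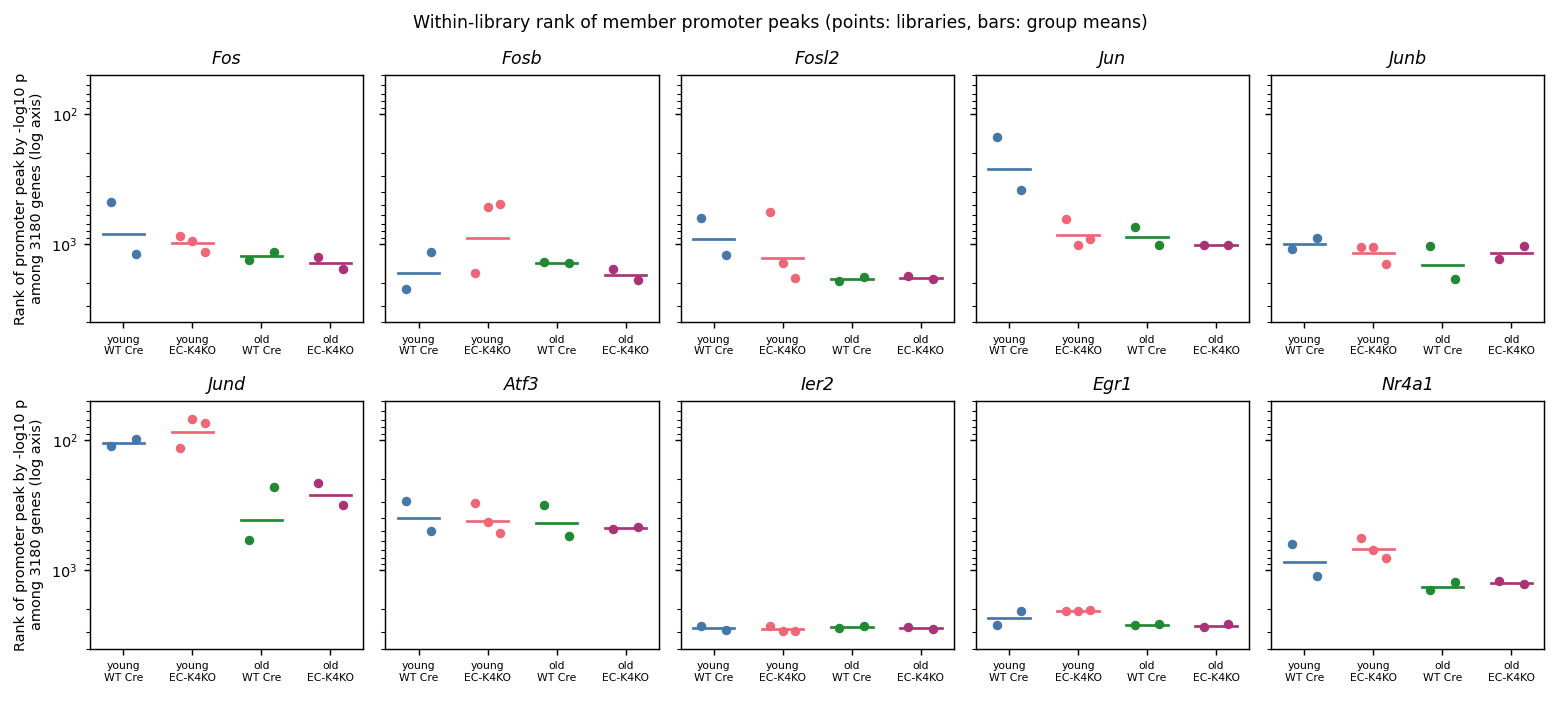
Rank of the promoter peak of each of the 10 genes by −log10 p among 3180 genes (y axis, log scale, strong peaks at the top) in the 4 groups (x axis). Points are libraries and bars are means of the ranks. Jun is highest in the 2 young WT Cre libraries (151 and 385), and Jund and Nr4a1 are lower in all 4 old libraries than in all young ones. The share of all genes in these orders was not counted.

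The test of these ranks compared their normal scores, on which 1 unit is about 1 standard deviation of all genes, by limma over all 3180 genes with Benjamini-Hochberg adjustment. It called 0 of the 10 members in each of the 5 contrasts. Over all genes it called 2.99% between young EC-K4KO and young WT Cre, 5.53% between old and young WT Cre, 0% between old EC-K4KO and old WT Cre, 3.18% between old and young EC-K4KO and 6.7% for old WT Cre against young EC-K4KO. At an unadjusted p under 0.05 the members numbered 1, 3, 0, 3 and 3 of 10 in that order, beside 22.2%, 25.8%, 2.80%, 22.6% and 24.1% of all genes. Over the members the median difference in normal score was -0.09, -0.39, -0.07, -0.41 and -0.35, beside 0.01, 0.01, -0.01, 0.03 and 0.06 over all genes.

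The smallest adjusted p of a member was that of Jund in old WT Cre against young EC-K4KO, at -0.76 ± 0.23 (SE, limma adjusted p = 0.0710). The Jun difference was -0.80 ± 0.23 (limma adjusted p = 0.0791) in young EC-K4KO and -0.83 ± 0.25 (limma adjusted p = 0.0724) in old WT Cre, each against the same young WT Cre libraries. Jund differed by -0.66 ± 0.25 between old and young WT Cre (limma adjusted p = 0.120) and by -0.54 ± 0.23 between old and young EC-K4KO (limma adjusted p = 0.189). Nr4a1 differed by -0.42 and -0.51 and Egr1 by -0.26 and -0.61 in the same contrasts, and Fosl2 by -0.78 and -0.47. Between old EC-K4KO and old WT Cre the members differed by -0.27 to 0.22. The difference of the genotype effects between ages ran from -0.99 for Fosb to 0.67 for Jun, with 0 members and 0 genes called by limma, and with 0 members and 318 of 3180 genes at an unadjusted p under 0.05.

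By the annotated promoter class 5 members (Fosb, Fosl2, Jun, Egr1 and Nr4a1) had a peak in all 9 libraries, of 2279 genes. limma again called 0 of them in each contrast, beside 1.62%, 5.31%, 0%, 3.82% and 6.93% of genes in the same order. At an unadjusted p under 0.05 they numbered 1, 2, 0, 3 and 2 of 5, beside 20.8%, 26.2%, 3.03%, 23.7% and 24.2% of genes. The Jun difference there was -0.83 ± 0.23 (limma adjusted p = 0.0784) in young EC-K4KO and -0.89 ± 0.25 (limma adjusted p = 0.0601) in old WT Cre. It was called in both contrasts when young WT Cre replicate 2 was left out, which leaves 1 young WT Cre library assumed to vary like the other groups. Without either young WT Cre library, which admits more genes to the fit, Egr1 was called in old against young EC-K4KO, and Egr1 and Nr4a1 in old WT Cre against young EC-K4KO. These fits also called more genes. Without replicate 1 they called 309 and 426 of 3143 in these contrasts, and without replicate 2 they called 292 and 369 of 2473, and 278 and 366 of 2473 in the contrasts where Jun was called.

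An exact permutation of age within genotype, two-sided over 60 arrangements with a smallest possible p of 0.0167, gave p = 0.0167 for Jund (-0.60) and for Nr4a1 (-0.47), both lower in 4 of 4 old libraries. It gave an exact p = 0.0333 for Egr1 (-0.44), and p from 0.0667 to 0.517 for the other 7 genes. Of all 3180 genes 24% had an exact p under 0.05 in this test, and 3 of 10 members is near that share. Permuting genotype within age gave an exact p = 0.0333 for Jun (-0.47) and p from 0.283 to 0.833 for the other 9 genes, beside 9.5% of all genes under 0.05. These 20 p-values were not adjusted, and the age comparison also compares the libraries of both name prefixes.

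The genes outside the lists whose rank profile over the 9 libraries was nearest to that of Fos were Atp2b1, Zfp787 and Eif4g2, with a mean absolute difference in normal score of 0.0929, 0.123 and 0.141 over 3180 genes. Atp2b1, a calcium pump of the plasma membrane, ranked 472 and 1194 in young WT Cre and 1200 to 1466 in the old libraries.

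Promoter peaks were narrowest in young WT Cre, the group with the shortest lists. The median width of promoter class peaks over 2279 genes rose from 386 and 458 bp in young WT Cre to 605 to 696 bp in young EC-K4KO and 681 to 738 bp in old libraries. The Fos peak was 538 and 517 bp wide in young WT Cre and 861, 829 and 837 bp in young EC-K4KO. It was 994 and 878 bp wide in old WT Cre and 1064 and 992 bp in old EC-K4KO. Each group of Fos peaks lay above young WT Cre, and the old libraries lay above young EC-K4KO. This order was not counted over all genes. The Jun peak was 1297 and 1551 bp wide in young WT Cre and 1578 to 1790 bp in the 7 other libraries. The Egr1 peak was 1340 and 1519 bp wide in young WT Cre, 1658 to 1699 bp in young EC-K4KO and 1799 to 2090 bp in the old libraries. Both were already broad in young WT Cre and widened by a smaller factor than the median gene.

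limma on log2 width, centred on the median of each library, called 2 of 5 members between young EC-K4KO and young WT Cre, where 13.4% of genes were called. Jun fell by 0.41 ± 0.09 (SE, limma adjusted p = 0.0337) and Egr1 fell by 0.40 ± 0.11 (limma adjusted p = 0.0486) relative to the library median. Between old and young WT Cre it called Jun alone, which fell by 0.42 ± 0.10 (limma adjusted p = 0.0375), where 11.6% of genes were called. In the 3 other contrasts 0 members were called by limma, beside 0.0439%, 0.0439% and 0.0878% of genes. At an unadjusted p under 0.05 these held 0, 0 and 1 of 5 members, beside 35, 197 and 229 of 2279 genes.

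The direction of these width values depends on the centring. Without it Jun was wider by 0.22 and 0.28 and Egr1 by 0.24 and 0.36 on the log2 scale in the same contrasts, while the median of all genes rose by 0.58 and 0.67. Both Jun calls and the Egr1 call were lost without any 1 of the 4 old libraries or without replicate 2 or 3 of young EC-K4KO, and the Egr1 call also without replicate 1 of young WT Cre, by position and with q under 0.01.

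A peak that covers its TSS in all 9 libraries was found for 6 members and 2279 genes, a set that coincides in size but not in content with the genes of the promoter class. The distance from the TSS to the downstream edge separates the part over the gene from the part over the promoter. For Atf3 it was 202 and 264 bp in young WT Cre, 311 to 349 bp in young EC-K4KO and 374 and 343 bp in old WT Cre. In old EC-K4KO it was 799 and 742 bp, and with this reach into the gene the peak centre left the promoter class. For Fos it was 152 and 180 bp in young WT Cre, 418 to 469 bp in young EC-K4KO, 589 and 472 bp in old WT Cre and 641 and 586 bp in old EC-K4KO. The upstream edge of the Fos peak moved little, from 336 to 422 bp over all 9 libraries. For Jun the downstream edge lay at 219 and 346 bp in young WT Cre and at 368 to 563 bp in the other libraries.

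The downstream edge lay farther out in every young EC-K4KO than every young WT Cre library for 4 of the 6 members (Fos, Jun, Junb and Atf3), beside 66.6% of all genes. It did so in old over young WT Cre for 6 of 6, beside 76.3%. Both counts are near the background. In old EC-K4KO over old WT Cre it did so for 2 of 6 (Atf3 and Nr4a1), beside 36.6%, and in old over young EC-K4KO for 4 of 6 (Fos, Fosb, Atf3 and Nr4a1), beside 30.9%. In the order of these 4 contrasts the median downstream change was 103, 167.5, 53.25 and 124 bp over the members. Over all genes it was 119, 119, 19 and 28.8 bp. The median upstream change was 69.9, 68, 2.75 and 15.8 bp over the members, beside 66.7, 115.5, 9 and 47.5 bp. By position the Atf3 width rose by 0.52 ± 0.12 log2 units between old WT Cre and old EC-K4KO, with a limma adjusted p = 0.9997 over 3180 genes, so it was not called. The Junb peak merged with the peak upstream of it in young EC-K4KO 1 and old WT Cre 2, where it was 2004 and 2117 bp wide against 414 to 759 bp in the other 7.

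**Figure D2:**
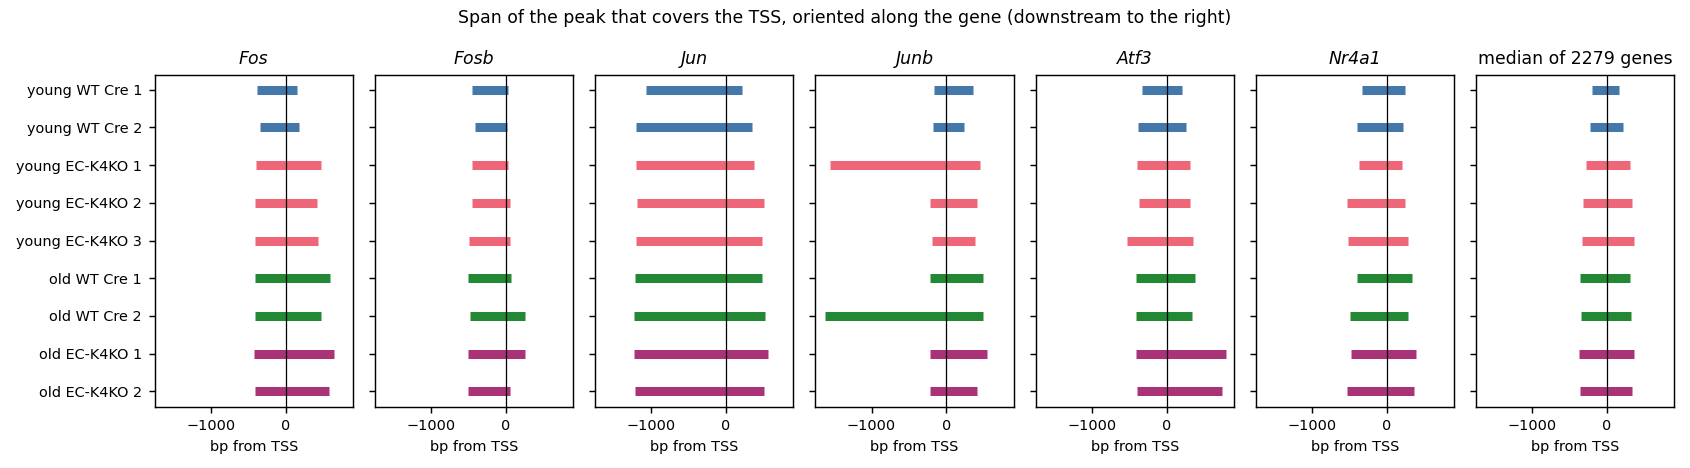
Span of the peak that covers the TSS for 6 members and the median edges of 2279 genes (x axis, bp from the TSS, downstream to the right) in each of the 9 libraries (y axis, colour by group). The Atf3 peak reaches 799 and 742 bp downstream in old EC-K4KO and at most 374 bp elsewhere.

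Outside the promoter class, merging the peaks of all libraries that overlap by at least 1 bp gave 88 regions annotated to members and 81654 in all, called distal here. Of the member regions 11 (12.5%) had a peak in all 9 libraries, against 1.79% of all distal regions, and 28 (31.8%) were seen in 1 library only, against 63.9%. The 11 include the Jund promoter peak by position (Jund +1183). They also include Nr4a1 -12712 and Atf3 -41302, which cover a TSS. Fosl2 had 22 such regions, Jun 18, Fos 13, Ier2 9, Fosb and Nr4a1 7 each, Atf3 6, Egr1 3, Jund 2 and Junb 1. A region is annotated to its nearest TSS, which need not be the gene it acts on.

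**Figure D3:**
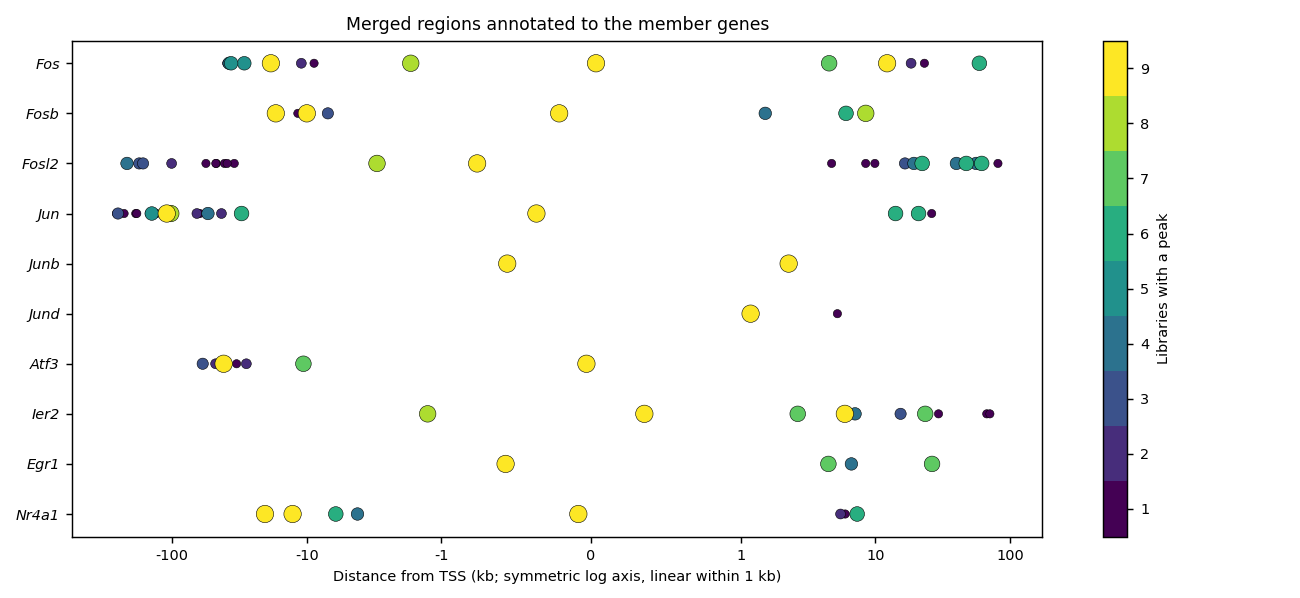
Merged regions annotated to each gene (y axis) by distance from the TSS (x axis, kb, symmetric log scale), with size and colour giving the number of libraries that hold a peak. The 9 regions of the promoter class and 11 others, which include the Jund promoter peak by position, are in all 9 libraries.

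Of the regions in all 9 libraries, the strongest distal elements ranked with or above the promoters. Regions were ranked by −log10 p among the 4872 regions, promoter and distal, present in every library. The Nr4a1 -20383 element ranked 95 and 144 in young WT Cre, 264, 165 and 181 in young EC-K4KO, 464 and 194 in old WT Cre and 188 and 216 in old EC-K4KO. The Nr4a1 promoter region ranked 733 to 1986 on the same scale, below this element in every library. The Fos -18425 element ranked 135 and 106 in young WT Cre, 115, 241 and 186 in young EC-K4KO, 352 and 332 in old WT Cre and 241 and 267 in old EC-K4KO. The Fos promoter region ranked 634 to 2215 and was likewise weaker than this element in all 9 libraries.

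The Fos +12199 element ranked 383 and 1219 in young WT Cre and 305, 213 and 478 in young EC-K4KO. The ranks in old WT Cre were 1276 and 432, and those in old EC-K4KO were 634 and 486. The low values were 1 library of each WT Cre group, and the groups overlapped. The Ier2 +5922 element ranked 1122 and 543 in young WT Cre, 1227 to 2115 in young EC-K4KO and 1021 to 1284 in the old libraries. The Fosb -9967 and -16932 elements ranked from 1443 to 2492, with little order among groups, and the Jun -109233 element, in an exon of Junos, from 1518 to 2985. The Atf3 -41302 element covers the TSS of D730003I15Rik in GENCODE M21 and ranked 3955 and 3129 in young WT Cre and 4229 to 4621 in the old libraries, all below the young ones. How many of all regions show this order was not counted. The Nr4a1 -12712 element covers an upstream Nr4a1 TSS of GENCODE M21 and ranked 3158 to 4503. The Junb +2267 element at the transcript end ranked 2930 and 4725 in young WT Cre, 2324 to 3914 in young EC-K4KO and 4592 to 4817 in the old libraries.

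In limma over the 4872 regions 0 of the 20 member regions were called in each contrast, beside 4.15%, 6.08%, 0%, 6.51% and 7.88% of all regions in the order used above. At an unadjusted p under 0.05 they numbered 3, 6, 0, 6 and 4 of 20, beside 23.9%, 26.6%, 3.88%, 24.4% and 25.5% of all regions, which is near the member share. The nearest to a call was Junb +2267, at -1.52 ± 0.44 in old WT Cre against young EC-K4KO (limma adjusted p = 0.0576). Leaving out either young WT Cre library leaves 1 library in that group and admits further regions, such as Fos -1688 or Fosl2 -3004. Such fits therefore hold more than these 20 member regions. They called some member regions, Junb +2267 among them in each fit, and also more regions of all genes. The region fit was added after the data had been seen.

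**Figure D4:**
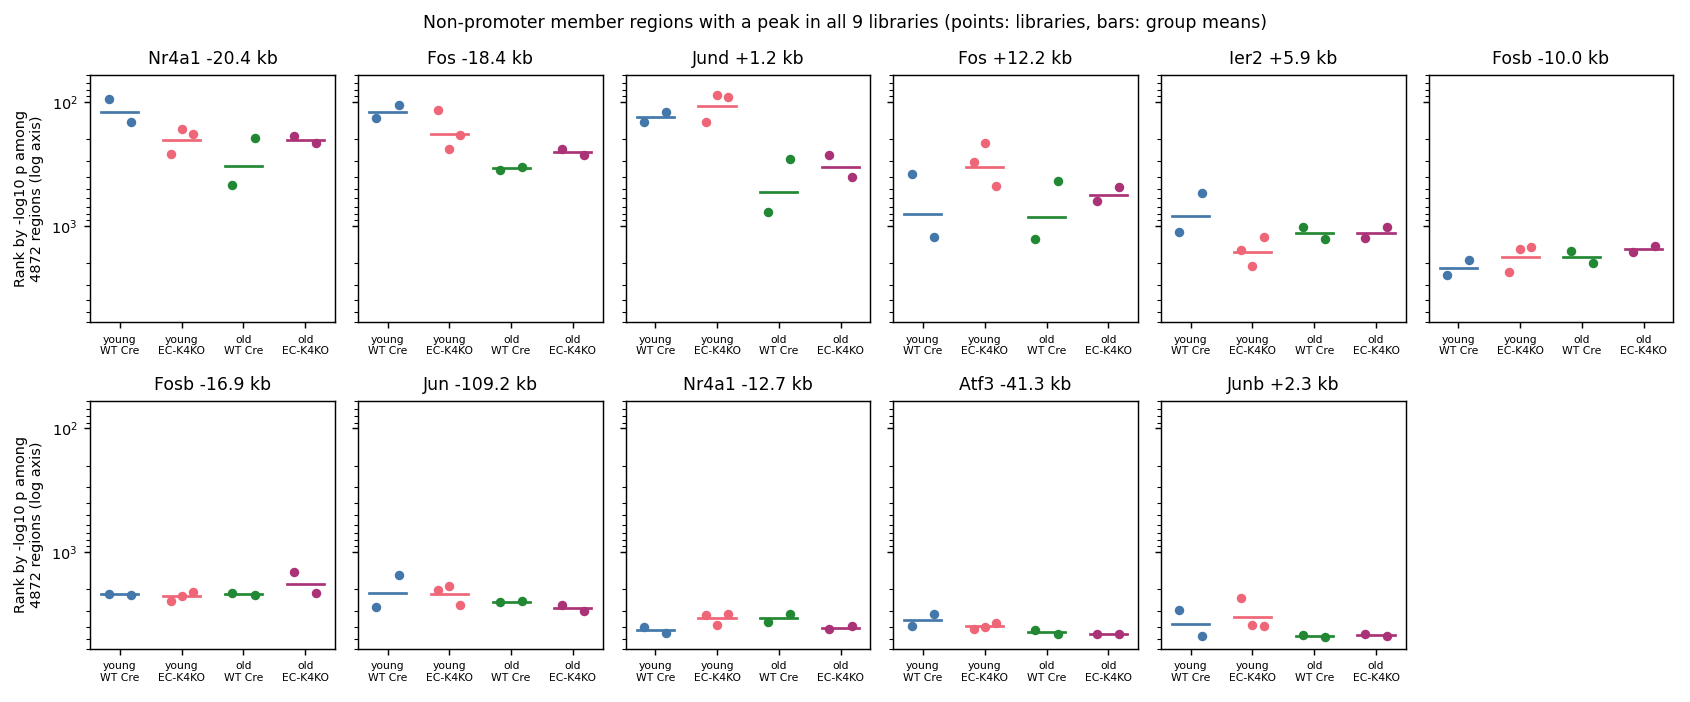
Rank by −log10 p among 4872 regions (y axis, log scale, strong peaks at the top) of the 11 member regions outside the promoter class with a peak in all 9 libraries, by group (x axis). Points are libraries and bars are means of the ranks. The Nr4a1 -20383 element stays between 95 and 464 and the Fos -18425 element between 106 and 352.

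Regions gained against young WT Cre were those with a peak in at least 2 libraries of a group and in neither young WT Cre library. In young EC-K4KO 16 of the 88 member regions (18.2%) were gained, beside 7.76% of all distal regions. In old WT Cre 27 (30.7%) were gained beside 15.3%, and in old EC-K4KO 37 of 88 beside 24.9%. The member share stood above the background in each group, but only 31.8% of member regions were seen in 1 library, against 63.9% of all, and a region seen once cannot meet the rule. Among peaks with q under 0.01 the counts were 12, 23 and 36 of 65, or 18.5%, 35.4% and 55.4%, beside 14.4%, 32.9% and 56.3% of all distal regions, so the member share was near the background in both old groups. The young EC-K4KO count was 6 of 86 without its replicate 2 (6.98%, beside 3.10% of all distal regions) and 6 of 84 without its replicate 3 (7.14%, beside 3.03%). With each list limited to its 6157 strongest peaks the counts were 2 of 18, 1 of 18 and 1 of 18, beside 5.23%, 7.44% and 9.52%. Of the 9 member promoter regions 0 were gained in any group, since all were present in every library.

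**Figure D5:**
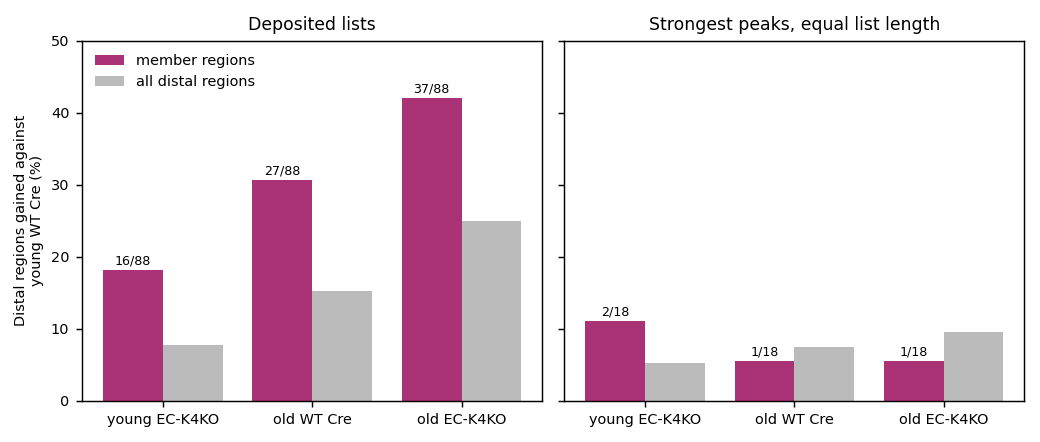
Share of distal regions gained against young WT Cre (y axis, percent) in the 3 other groups (x axis) for member regions and for all distal regions, in the deposited lists and with each list limited to its 6157 strongest peaks. Labels give the counts, which fall from 16, 27 and 37 of 88 to 2, 1 and 1 of 18.

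The gained regions at equal list length were 2 elements. The Ier2 +23392 region (chr8:84639156-84639914) lies in an exon of Cacna1a, a calcium channel gene. It held ranks 258, 2090 and 1815 within the whole lists of young EC-K4KO, 7849 and 6139 in old WT Cre and 3006 and 5471 in old EC-K4KO, and no peak in either young WT Cre list. The intergenic Egr1 +26292 region held ranks 3071, 2879 and 3330 in young EC-K4KO, 2943 and 2398 in old WT Cre and 6870 and 4760 in old EC-K4KO. It too was missing from both young WT Cre lists. Presence was not tested, since both were picked by their pattern.

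These regions belong to 5 member regions (5.68%) found in each of the 7 EC-K4KO or old libraries and in neither young WT Cre one, beside 2.32% of all distal regions. The other 3 were weaker. Egr1 +4471 at the transcript end lay at ranks 16532 to 34826, Fos +4528 at 10324 to 28093 and Ier2 +2648 at 6465 to 14125. Of these the Egr1 and Fos regions rank beyond the full length of both young WT Cre lists in every library. A further 8 member regions (9.09%) were in all 4 old and in no young library, beside 4.02% of all distal regions. Regions seen in 1 library cannot meet either pattern. They make up 31.8% of member regions and 63.9% of all distal regions, so these shares are not on an equal footing.

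The choice of genes did not use the sequence of their accessible elements. Motifs were counted on both strands in 300 base windows. The CRE half-site TGACGT was in 7 of the 11 distal windows open in all 9 libraries (63.6%), beside 9.58% of the 1461 such windows of all genes, and in 5 of 9 member promoter regions (55.6%), beside 14.2% of 3411. This motif was added after the windows had been seen. One of the 11 is the Jund +1183 window, which is also the Jund promoter peak by position, and without it the half-site and the EGR match were each in 6 of 10. The Nr4a1 -12712 and Atf3 -41302 regions also cover a TSS and stay in these counts beside distal regions. The Nr4a1 window holds a half-site, a KLF and an EGR match, and the Atf3 window a KLF match. The full CRE TGACGTCA, which contains the half-site, was in 0 of these 11 beside 2.67%. The EGR match GCGNGGGCG was in 7 of 11 (63.6%) beside 7.32%, and KLF GGGTGNGG in 5 of 11 (45.5%) beside 21.8%. In the promoter regions the EGR match was in 3 of 9 (33.3%) beside 12.7%, while KLF was in 0 of 9 beside 20.3% and in 1 of 8 RefSeq promoters beside 16.6%. The GC box GGGCGG, which can overlap an EGR match, was in 7 of 11 (63.6%) beside 39.0%. The median GC content of the 11 windows was 67.7%, against 56.3% over all 1461, and its part in the counts of the GC-rich motifs was not tested.

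The AP-1 sequence TGANTCA was in 0 of the 11 constant distal windows, beside 15.9% of all such windows, and in 0 of 8 RefSeq promoters, beside 7.81% of 32851. It was in 1 of 9 windows under the promoter peaks, that of Fosl2. Among distal regions seen in 4 or fewer libraries 14 of 53 member windows (26.4%) held it, beside 11.1% of all such windows, and among those in 5 or more libraries 1 of 35 (2.86%), beside 17.4%. Some of the member matches were TGATTCA or TGAATCA. The CArG box was in 1 of the 11 constant windows, Fos +12199, beside 1.98%. ETS CCGGAAG was in 0 of 11 beside 8.21%, and the NBRE AAAGGTCA, the monomer site of Nr4a1, in 1 of 11 (Fosb -16932) beside 1.64%. A match is a description of letters and not evidence of binding.

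Other genes of the pathway were read from lists in the same fit of promoter ranks by position. Of the 10 AP-1 partner genes 4 could be tested, and Maff, a small Maf protein, was the only one called. It fell by 1.01 ± 0.27 (limma adjusted p = 0.0490) between young EC-K4KO and old WT Cre, where 6.7% of all genes were called. Of 25 other immediate early genes 12 could be tested, of which Maff, held by both lists, was again the only one called. The median of this list was 0.09, -0.25, -0.10, -0.45 and -0.36 in the order of contrasts used above, beside 0.01, 0.01, -0.01, 0.03 and 0.06 over all genes. Klf2 and Klf10, Krüppel-like factors induced by flow and by growth factors, had the best ranks, at 48 to 105 and 58 to 380 of 3180.

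Of 20 upstream factors and kinases 8 could be tested and 2 were called. Mef2d, a MADS box factor that drives Nr4a1 and Jun, fell by 1.38 ± 0.23 between young and old WT Cre (limma adjusted p = 0.0130) and by 1.26 ± 0.21 between young and old EC-K4KO (limma adjusted p = 0.0163). Mapk8, the kinase JNK1 that phosphorylates Jun, fell by 0.89 ± 0.22 (limma adjusted p = 0.0442) and by 0.95 ± 0.21 (limma adjusted p = 0.0341). Both also fell between young EC-K4KO and old WT Cre, by 1.40 and 1.20. In the promoter class fit, their calls between old and young EC-K4KO were lost when either old EC-K4KO library was left out. Their calls between old and young WT Cre were lost there without replicate 1 of old WT Cre. Mapk7 and Mef2a had the best ranks of this list, at 216 to 449 and 139 to 1040. Atf7 and Atf2 led the partner list, at 286 to 795 and 1604 to 2118. In the width fit of the promoter class 2 partner, 12 other immediate early, 7 upstream and 6 heat shock genes could be tested. Of all genes 13.4% were called in young EC-K4KO and 11.6% in old WT Cre, each against young WT Cre. Maff, Mef2a and Hspa8 were called as widening less than the library median in both comparisons, and Creb1 in young EC-K4KO. Without centring their log2 widths were greater by 0.07 to 0.22 and none was called by limma, so this direction too rests on the centring. Nr4a3 in old WT Cre widened more than the median, by 0.62 ± 0.15 (limma adjusted p = 0.0376), and by 1.33 without centring. Of 8 heat shock genes that respond to tissue dissociation 7 could be tested and 0 were called by limma, with list medians from -0.33 to 0.23. Their promoters were open in 7 or 8 of 8 cases in every library, led by Hspa8 at ranks 36 to 241 and Dnajb1 at 202 to 376.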

How the data were processed

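Omni-ATAC-seq libraries of flow-sorted mouse brain ECs were analysed from the deposited peak lists. Per the labels and methods the authors aligned reads to GRCm38 (mm10) with Bowtie2 and called broad peaks in each library with MACS2 from read pairs. Per the file headers the deposited annotation was made with annotatePeaks.pl, the HOMER program, while the methods name ChIPseeker for annotation. The deposited values are a −log10 p and −log10 q, a fold enrichment (a ratio) and a peak score for each peak. They were not normalized between libraries and hold no read counts.

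Peaks were ranked by −log10 p within a library. Promoter ranks were turned into normal scores, and widths into log2 values centred on the library median, and fitted with 4 group means in limma 3.58.1 (R 4.3.3), with Benjamini-Hochberg adjustment over all genes and a threshold of 0.05. Tables were joined in Python 3.11.15 with pandas 2.3.3. Peaks overlapping by 1 bp were merged into regions. Scripts were tested on simulated data. The fits held genes with a promoter peak in every library. The planned fit used the promoter class, and the fit by position, which was planned as an alternative, is given first because it holds all 10 genes. Called lists per library cannot separate weaker signal from lower depth, and interval estimates for shares were not made since depth is unknown. All genes of the set were named, with Klf4, the called and the 2 best ranked genes of each related list, the 3 nearest profiles to Fos and the regions open in all libraries or gained with the best ranks. The genes and lists were chosen with earlier results of these data known. The region fit, the downstream edges, the patterns over 7 or 4 libraries and the CRE half-site were added after the data had been seen. The split of AP-1 windows by number of libraries was not planned either. Alternatives were fold enrichment, the percent of the list, missing peaks at the bottom, a stricter q, widths not centred, equal list length, a larger overlap, a replicate block and each library left out.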

Additional observations from a re-analysis of the deposited data

How the results depend on the processing

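Promoter class fits were repeated with other settings, and counts are of members called by limma in the order of contrasts used above. For rank the main count was 0 in each. Ranking fold enrichment called 1 (Jun) in the second contrast, where it called 311 of 2279 genes. Rank as a percent of the whole list called 4 and 3 in the first and second, and turned Fosl2 to 1.35 in the first and Egr1 to 1.70 and Nr4a1 to 1.5 in the second. This scale moves with list length by construction and called 1983 and 2052 of 2279 genes. Placing missing peaks at the bottom called 1 (Atf3) in the comparisons of old EC-K4KO, since its old EC-K4KO peaks left the promoter class and counted as missing. Leaving out 1 library gave 0 to 1, 0 to 1, 0 to 0, 0 to 1 and 0 to 2, with the calls coming without young WT Cre replicate 1 or 2. For width the main counts were 2, 1, 0, 0 and 0. By position or with q under 0.01 the first was 1. Without centring the first contrasts gave 0 and 2, beside 1446 and 1611 of 2279 genes, with Jun at 0.22 and 0.28, Egr1 at 0.24 and 0.36 and Fosb at 0.49, all opposite in sign to the centred values. Leaving out 1 library gave 0 to 3 and 0 to 1 for width in these contrasts.

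Same-numbered libraries share only a number. The correlations of their deviations between groups ran from -0.0039 to 0.101. With the replicate number as a block 0 members were called for rank or width in all 5 contrasts, and over all genes the rank calls went from 37, 121, 0, 87 and 158 to 0, 87, 0, 5 and 51.

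Gained member regions numbered 2, 1 and 1 among the strongest peaks of each library instead of 16, 27 and 37, and 6 to 19, 27 to 37 and 37 to 48 when 1 library was left out. Promoter class presence was 70 of 90 gene and library pairs, and 66 at equal list length. Of 700 repeated values of single members 607 kept direction and side of the threshold, 47 changed sign with no call in either fit, 24 lost and 14 gained a call, and 8 turned direction, as given above. The unknown depth and the 2 libraries of 3 groups limit all comparisons.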
